A study of Mus musculus with 6 samples.

Results

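The small leucine-rich proteoglycans (SLRPs) examined here were decorin (Dcn), biglycan (Bgn), lumican (Lum), fibromodulin (Fmod), osteoglycin (Ogn), asporin (Aspn), PRELP (Prelp), osteomodulin (Omd) and podocan (Podn). These 9 genes were taken by name from the 54532 genes of the count table, and all 9 were among the 14774 genes with enough counts to be tested. SLRPs are secreted proteins built on a curved core of leucine-rich repeats, and many of them carry chondroitin, dermatan or keratan sulfate chains. They bind to the surface of collagen fibrils, where they set fibril width and spacing, and several of them also hold growth factors such as TGF-β or bind receptors on cells. In the heart they are known mainly as products of fibroblasts and are found where matrix is laid down after pressure overload.

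Expression was measured by RNA-seq in left ventricle of male mice whose aorta had been banded (AB), a surgical narrowing that loads the heart with pressure. The TG group (n = 3, genotype HINT2CTG-Myh6Cre) carried a CAG-driven HINT2 transgene that tamoxifen-activated Cre under the Myh6 promoter switches on in cardiomyocytes. The NTG group (n = 3) is labelled C57BL/6J and carries no transgene, and whether it received Cre or tamoxifen is not given in the sources used here. Both groups were operated at 8 to 10 weeks of age and sampled 4 weeks after AB, with 1 library per heart, so every library comes from a banded heart. The transgene acts in cardiomyocytes, whereas the genes described here are best known from other cells of the ventricle. The question put by the design is how the RNA of banded hearts differs when HINT2 is overexpressed.

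Total counts on genes ranged from 14863568 to 17581220 per library, and depth was similar in both groups. The library labelled NTG 1 stood apart from its label, with 12 counts of the targeted gene Hint2 against 545 and 559 in the other NTG libraries and 793 to 859 in TG. The log2 fold change of Hint2 was 1.33 (standard error (SE) 0.86, adjusted p = 0.433, edgeR) with 6 libraries and 0.77 (adjusted p = 0.0212) without the library labelled NTG 1. On the first principal component of all genes tested, which held 52.3% of the variance, that library was at -5.08, between 55.7 and 29.3 for the other NTG libraries and -10.7 to -36.5 for TG. Its label was kept. Whether this heart had the genotype of the NTG group was not tested, so the NTG means and ranges rest on the label. The fits of the members, and the group ranges that change without this library, are given in both ways.

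Transcripts of most of these proteoglycans were less abundant in TG than in NTG hearts. Fmod showed the largest difference, with an NTG mean 3.75 times the TG mean in CPM (counts scaled to a common library size with TMM factors), followed by Bgn at 2.63, Prelp at 2.21, Aspn at 1.99 and Dcn at 1.57 times. Podn differed least, at 0.949 times. For Dcn, Bgn, Fmod, Ogn, Aspn and Prelp, each TG library lay below each NTG library, which is 6 of 9 members or 66.7%, while the same held for 12.3% of all genes tested. Without the library labelled NTG 1 it held for the same 6 genes and for 23.6% of all genes. The median log2 fold change of the 9 members was -0.65, beside -0.01 over all genes tested.

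Calls required an adjusted p (Benjamini-Hochberg, over all genes tested) under 0.05 together with a log2 fold change of more than 0.5 in size. With the quasi-likelihood test of edgeR, 0 of 9 members were called lower, as were 0% of all genes, so none of the differences passed this test. At an unadjusted p under 0.05, 6 of 9 members (66.7%) were lower by edgeR, and 9.76% of all genes tested were. The calls depended on the processing. Without the low-count filter, edgeR called 2 of 9 lower (22.2%, against 0.432% of all genes), namely Dcn and Prelp. DESeq2 called 5 of 9 members lower (55.6%, against 2.40% of all genes), namely Dcn, Bgn, Fmod, Aspn and Prelp. Without the library labelled NTG 1, edgeR called 2 of 9 lower (22.2%, against 2.85%), namely Bgn and Prelp. With the replicate number as a block, edgeR called 3 of 9 lower (against 0.995% of all genes), namely Bgn, Aspn and Prelp. By either tool with 6 libraries, 0 members were called higher, beside 0 of all genes by edgeR and 1.54% by DESeq2. At an unadjusted p under 0.05, 0 members were higher, beside 8.83% of all genes by edgeR. Dcn, Bgn, Fmod, Aspn and Prelp were lower at an unadjusted p under 0.05 in each of 19 fits. The fits changed the scaling, the filter, the tool, the replicate block or the libraries. They reuse the same 6 libraries, so they are not repeated evidence, and the share of all genes lower in every fit was not counted.

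**Figure D1:**
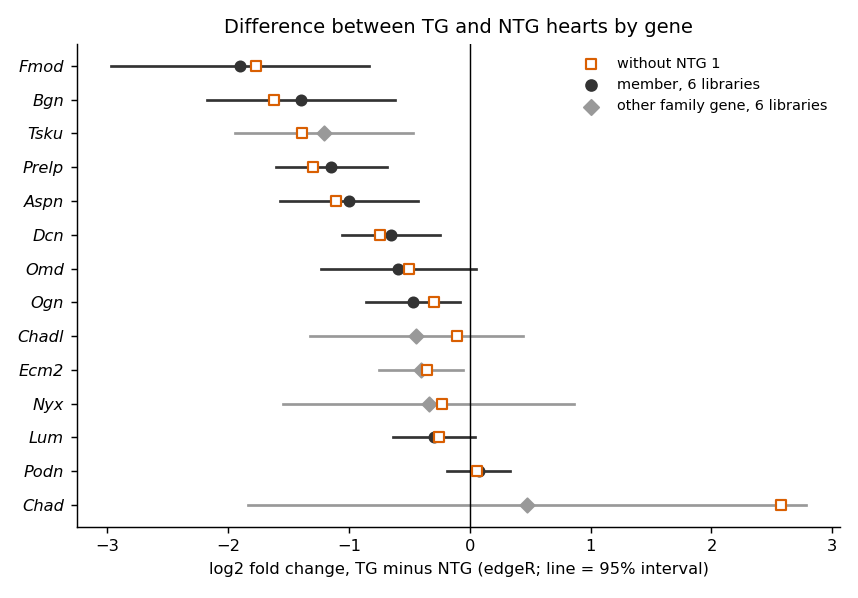
Log2 fold change (TG minus NTG, x axis) from edgeR for the 9 members (black circles) and the 5 other family genes tested (grey diamonds), with lines for the 95% interval and open squares for the fit without the library labelled NTG 1. The intervals of Fmod, Bgn, Prelp, Aspn, Dcn and Ogn lay below 0, those of Omd, Lum and Podn crossed it, and Chad moved from 0.47 to 2.58 when that library was left out.

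The regions just before the transcription starts of the members with the largest differences, and of Podn for contrast, are shown because these 4 genes had the lowest fitted values of the members and lie on 3 chromosomes. They are the 250 bases before the RefSeq start on GRCm38.p6, on the strand of the gene. The stretches are chr1:133921402-133921651 (minus strand) for Prelp, chr1:134037004-134037253 (plus) for Fmod, chrX:73483351-73483600 (plus) for Bgn, chr13:49544193-49544442 (plus) for Aspn and chr4:108030987-108031236 (minus) for Podn. They hold no annotated exon of GENCODE release M21 except for 13 bases of Prelp, and the Podn stretch, before the downstream one of its RefSeq starts, lies in an annotated intron of Podn. Capitals mark matches to TATAAA, the core of a TATA box, on either strand.
Prelp: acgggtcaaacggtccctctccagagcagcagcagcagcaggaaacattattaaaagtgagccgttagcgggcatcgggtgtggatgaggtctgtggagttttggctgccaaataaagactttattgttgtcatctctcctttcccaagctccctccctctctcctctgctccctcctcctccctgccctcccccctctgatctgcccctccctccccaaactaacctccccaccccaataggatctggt
Fmod: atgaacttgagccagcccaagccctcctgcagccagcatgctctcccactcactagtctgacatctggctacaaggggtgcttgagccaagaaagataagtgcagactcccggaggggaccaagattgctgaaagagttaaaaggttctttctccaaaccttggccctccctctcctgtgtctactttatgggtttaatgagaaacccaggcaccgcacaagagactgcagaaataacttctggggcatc
Bgn: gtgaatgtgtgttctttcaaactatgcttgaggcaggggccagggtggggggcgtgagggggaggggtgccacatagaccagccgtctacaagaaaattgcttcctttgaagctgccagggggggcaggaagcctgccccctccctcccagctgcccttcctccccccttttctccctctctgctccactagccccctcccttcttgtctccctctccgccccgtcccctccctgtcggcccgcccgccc
Aspn: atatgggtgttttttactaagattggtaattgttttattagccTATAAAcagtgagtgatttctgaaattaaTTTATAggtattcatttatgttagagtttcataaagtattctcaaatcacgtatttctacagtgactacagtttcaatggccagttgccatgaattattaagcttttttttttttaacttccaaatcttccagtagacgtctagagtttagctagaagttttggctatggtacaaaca
Podn: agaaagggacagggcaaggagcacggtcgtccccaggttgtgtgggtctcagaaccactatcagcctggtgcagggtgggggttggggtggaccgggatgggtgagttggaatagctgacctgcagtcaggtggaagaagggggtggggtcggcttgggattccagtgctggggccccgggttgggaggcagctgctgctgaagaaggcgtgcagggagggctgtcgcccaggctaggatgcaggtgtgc
Of the 9 members, 7 had such a stretch in the RefSeq table, and Dcn and Lum did not. The letters TATAAA (core promoter), TGANTCA (AP-1), GGAATG (TEAD) and CAGACA (SMAD) were searched on both strands, motifs chosen after the sequences had been seen. Among the 5 stretches printed, only Aspn held a match, with TATAAA at 207 to 202 and, on the other strand, at 178 to 173 bases before the start. Ogn, not printed, held TATAAA on both strands in overlapping letters and GGAATG at 86 to 81 bases before its start. Of the 32851 stretches of the table, 12.4% hold TATAAA, 6.75% TGANTCA, 12.6% GGAATG and 17.1% CAGACA. Base composition varied widely, with 30% G and C in Aspn, 51.2% in Fmod, 55.6% in Prelp, 64.4% in Bgn, and 64% and 78% in the Podn stretches before its downstream and upstream RefSeq starts, beside a median of 52.4% over the table. None of the 4 motifs was present in all of the stretches searched.

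Dcn, Bgn and Aspn form the class of SLRPs closest to decorin. Decorin carries a single chondroitin or dermatan sulfate chain, limits the lateral growth of collagen fibrils and binds TGF-β. Dcn (chromosome 10, 97479609 to 97518143, plus strand) was at 1293, 1649 and 1510 CPM in the libraries labelled NTG 1, NTG 2 and NTG 3, and at 812, 1140 and 887 CPM in TG 1, TG 2 and TG 3. The groups did not overlap, and TG 2 was the TG library nearest to NTG. edgeR gave Dcn a log2 fold change of -0.65 (SE 0.18, 95% interval -1.05 to -0.24, adjusted p = 0.196). Its unadjusted p was 0.00597 by edgeR, its adjusted p 0.00934 by DESeq2, and the log2 fold change was -0.74 once the library labelled NTG 1 was left out (adjusted p = 0.0518, edgeR). The DESeq2 call of Dcn was lost without NTG 2, NTG 3, TG 1 or TG 3, with adjusted p from 0.112 to 0.155.

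Biglycan, decorin's closest relative, carries a pair of such chains, and as a soluble fragment it is a ligand of the innate receptors Tlr2 and Tlr4. Bgn (chromosome X, 73483602 to 73495933, plus strand) was at 1535, 3130 and 2270 CPM in NTG 1, NTG 2 and NTG 3, and at 732, 1250 and 655 CPM in TG 1, TG 2 and TG 3. Among the NTG libraries the one labelled NTG 1 lay closest to TG, yet the groups did not overlap. The fitted log2 fold change of Bgn was -1.40 (SE 0.33, 95% interval -2.17 to -0.62, unadjusted p = 0.00349, adjusted p = 0.196, edgeR). DESeq2 gave it an adjusted p of 0.000876, and edgeR without the library labelled NTG 1 gave -1.62 (adjusted p = 0.0332), a call.

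Asporin lacks a glycosaminoglycan attachment site, competes with decorin for collagen and binds TGF-β. Aspn (chromosome 13, 49544443 to 49567565, plus strand) was at 118, 186 and 114 CPM in NTG 1, NTG 2 and NTG 3, and at 78.7, 79.2 and 51.6 CPM in TG 1, TG 2 and TG 3. NTG 2 was high among the NTG libraries and TG 3 low among the TG libraries, without overlap of the groups. Its log2 fold change by edgeR was -0.996 (SE 0.24, 95% interval -1.57 to -0.42, unadjusted p = 0.00433, adjusted p = 0.196). The DESeq2 adjusted p of Aspn was 0.00526, and without the library labelled NTG 1 edgeR gave -1.10 (adjusted p = 0.0737). Its DESeq2 call was lost without NTG 2 (adjusted p = 0.0629) or TG 3 (adjusted p = 0.101).

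Fmod, Lum, Prelp and Omd belong to the class of SLRPs that carry keratan sulfate or, in the case of Prelp, a basic stretch at the start of the protein that binds heparan sulfate. Fibromodulin binds fibrillar collagen and guides the cross-linking enzyme lysyl oxidase to it. Fmod (chromosome 1, 134037254 to 134048277, plus strand) was at 139, 129 and 86.0 CPM in NTG 1, NTG 2 and NTG 3, and at 14.6, 52.3 and 27.6 CPM in TG 1, TG 2 and TG 3. TG 1 was the lowest library and the group ranges stayed apart, with 202 counts in TG 1 and 1486 to 2425 counts in the NTG libraries. Of the 9 members Fmod had the largest fitted difference, a log2 fold change of -1.90 (SE 0.45, 95% interval -2.97 to -0.83, unadjusted p = 0.00421, adjusted p = 0.196, edgeR). It was called lower by DESeq2 (adjusted p = 0.000244) and not by edgeR without the library labelled NTG 1, where its log2 fold change was -1.77 (adjusted p = 0.157). DESeq2 also lost the call of Fmod without the library labelled NTG 1 (adjusted p = 0.061), without NTG 2 (adjusted p = 0.252) or without TG 3 (adjusted p = 0.238).

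PRELP links basement membranes to the collagen around them. Prelp (chromosome 1, 133910304 to 133921414, minus strand) was at 255, 361 and 366 CPM in NTG 1, NTG 2 and NTG 3, and at 128, 186 and 131 CPM in TG 1, TG 2 and TG 3. The highest TG library, TG 2, was well below the lowest NTG library, the one labelled NTG 1. Ordered by p, Prelp ranked 24 among the 14774 genes tested (unadjusted p = 0.000443, edgeR), the highest rank of the members. Its log2 fold change was -1.14 (SE 0.20, 95% interval -1.60 to -0.69, adjusted p = 0.196, edgeR), with an adjusted p of 4.2e-05 by DESeq2. Leaving out the library labelled NTG 1 gave -1.30 (adjusted p = 0.0154, edgeR), a call.

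Lumican regulates fibril assembly in the cornea, skin and heart. Lum (chromosome 10, 97565128 to 97572703, plus strand) was at 181, 180 and 153 CPM in NTG 1, NTG 2 and NTG 3, and at 125, 171 and 124 CPM in TG 1, TG 2 and TG 3. TG 2 lay above NTG 3, so the groups overlapped. Lum's log2 fold change of -0.29 (SE 0.15, 95% interval -0.64 to 0.05, adjusted p = 0.321, edgeR) passed neither test, with a DESeq2 adjusted p of 0.349, and was -0.26 (adjusted p = 0.352, edgeR) without the library labelled NTG 1. Without TG 2 it was -0.47 (adjusted p = 0.16, edgeR), and DESeq2 then gave an adjusted p of 0.0314 with a log2 fold change of -0.46, too small in size for a call. Osteomodulin, best known from bone, was the least counted member. Omd (chromosome 13, 49582462 to 49592822, plus strand) was at 4.10, 3.13 and 3.70 CPM in NTG 1, NTG 2 and NTG 3, and at 2.24, 3.18 and 1.79 CPM in TG 1, TG 2 and TG 3, or 29 to 64 counts per library. TG 2 again overlapped the NTG range, and the log2 fold change of -0.59 (SE 0.28, 95% interval -1.23 to 0.05, adjusted p = 0.295, edgeR) did not pass either test, nor did that of -0.50 (adjusted p = 0.343, edgeR) without the library labelled NTG 1.

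Osteoglycin, also called mimecan, is a smaller family member that takes part in fibril assembly. Ogn (chromosome 13, 49608046 to 49624501, plus strand) was at 176, 144 and 110.3 CPM in NTG 1, NTG 2 and NTG 3, and at 92.8, 109 and 109.6 CPM in TG 1, TG 2 and TG 3. The groups did not overlap, though NTG 3 and TG 3 were almost level. Ogn had a log2 fold change of -0.47 (SE 0.17, 95% interval -0.86 to -0.08, unadjusted p = 0.0248, adjusted p = 0.221, edgeR) and was not called by DESeq2 (adjusted p = 0.144). Leaving out the library labelled NTG 1 brought it to -0.30 (adjusted p = 0.215, edgeR). Without NTG 3, DESeq2 called Ogn lower (-0.62, adjusted p = 0.0426).

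Podocan, a more distant SLRP that binds collagen, was the member that differed least. Podn (chromosome 4, 108014791 to 108096445, minus strand) was at 17.1, 16.7 and 18.5 CPM in NTG 1, NTG 2 and NTG 3, and at 19.1, 19.1 and 16.8 CPM in TG 1, TG 2 and TG 3. The 6 libraries were mixed in order. The log2 fold change of 0.08 (SE 0.11, 95% interval -0.19 to 0.34, adjusted p = 0.741, edgeR) had its lower bound above the fitted value of each of the other 8 members, and its sign turned (-0.0077) when libraries were scaled by their totals alone. This interval was the narrowest of the members, and without the library labelled NTG 1 the value was 0.06 (adjusted p = 0.806, edgeR).

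Some counts could be shared with other genes. Cenpp, annotated on the opposite strand, spans Ogn, Aspn and Omd and had 19 to 32 counts per library, at most 2.18% of the Ogn count and 3.47% of the Aspn count but up to 100% of the Omd count. Podn overlaps Scp2 on the same strand, which had 2996 to 3662 counts, and the strand setting of the counting is not given in the sources used here. Of all 50-base stretches in the transcripts, none of Dcn, Lum, Fmod, Ogn or Aspn occurred in another annotated gene, while 8.47% of Prelp's occurred in its antisense neighbour Gm15851, which had 0 or 1 counts. The share of such stretches also found in other genes was 4.67% for Omd, 0.251% for Podn and 0.142% for Bgn.

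**Figure D2:**
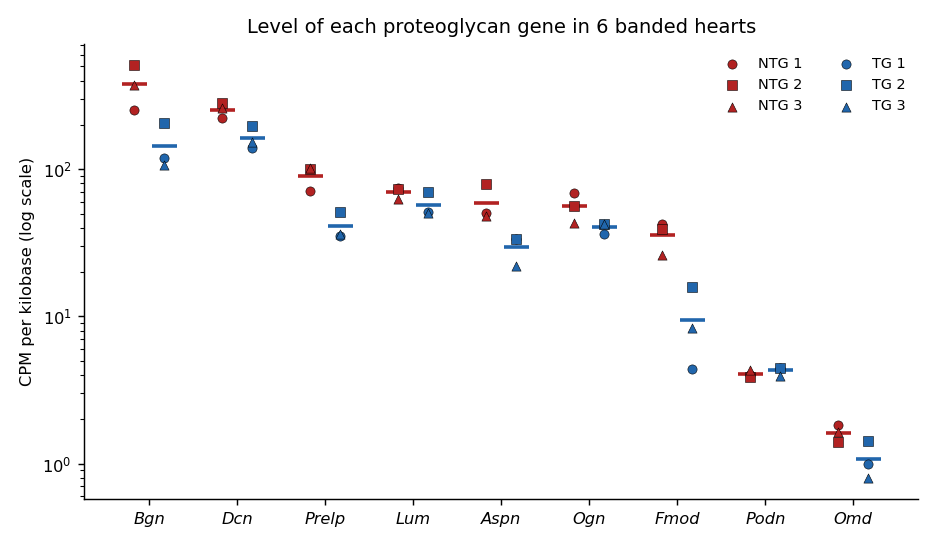
CPM per kilobase of merged exon length (log axis) of the 9 members in each library, with 1 point per heart and bars at the group means. All TG points lie below all NTG points for Dcn, Bgn, Fmod, Ogn, Aspn and Prelp, and the points of Lum, Podn and Omd overlap.

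Levels were compared between genes as CPM per kilobase of merged exon length. In NTG hearts Bgn was highest at 379 ± 131 (SD, n = 3) CPM per kilobase, followed by Dcn at 254 ± 30.8, Prelp at 90.6 ± 17.3, Lum at 70.1 ± 6.44, Aspn at 59.1 ± 17.1, Ogn at 55.9 ± 12.9, Fmod at 35.7 ± 8.54, Podn at 4.08 ± 0.22 and Omd at 1.62 ± 0.22. The ranges of Bgn and Dcn overlapped, as did those of the neighbours Prelp and Lum, Lum and Aspn, and Aspn and Ogn, whereas Ogn and Fmod, Fmod and Podn, and Podn and Omd were apart. In TG hearts the order was Dcn at 162 ± 29.4 (SD, n = 3) CPM per kilobase, Bgn at 144 ± 53.1, Lum at 57.1 ± 11.1, Prelp at 41.0 ± 9.01, Ogn at 40.4 ± 3.69, Aspn at 29.7 ± 6.70, Fmod at 9.52 ± 5.79, Podn at 4.29 ± 0.31 and Omd at 1.07 ± 0.32. Here Dcn and Bgn, Lum and Prelp, Prelp and Ogn, and Fmod and Podn overlapped. In the library TG 1, Fmod was at 4.41 and Podn at 4.48 CPM per kilobase.

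Summed over the 9 members, the level was 785, 1148 and 918 CPM per kilobase in NTG 1, NTG 2 and NTG 3, and 425, 619 and 424 in TG 1, TG 2 and TG 3. The groups did not overlap (two-sided exact permutation test, p = 0.1, which is the minimum for 3 against 3 libraries, here and for each such test). The members took 0.488% ± 0.128 (SD, n = 3) of all counts in NTG and 0.229% ± 0.068 (SD, n = 3) in TG. Dcn and Bgn dominated both groups, and their order differed between them. Per length, Bgn was 1.14, 1.82 and 1.44 times Dcn in NTG 1, NTG 2 and NTG 3, and 0.863, 1.05 and 0.707 times Dcn in TG 1, TG 2 and TG 3 (two-sided exact permutation test, p = 0.1). Bgn therefore exceeded Dcn in each NTG library and in 1 of 3 TG libraries.

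**Figure D3:**
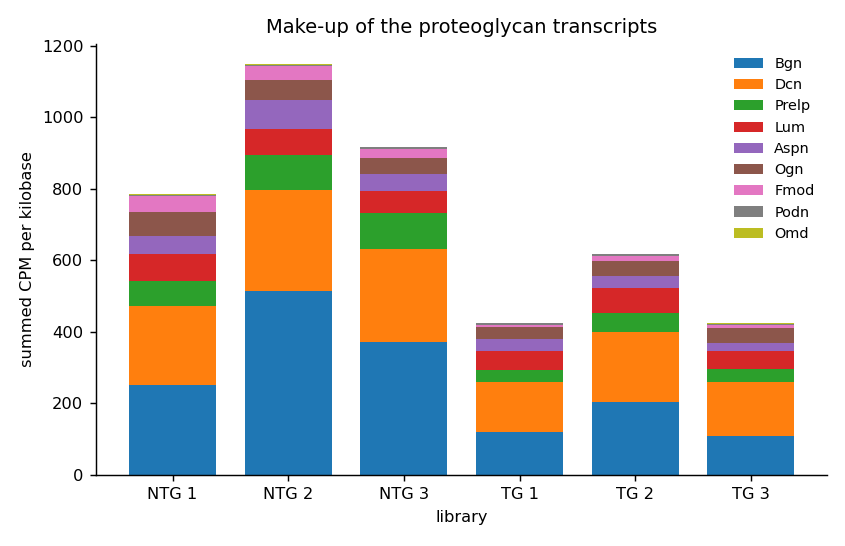
Stacked bars of CPM per kilobase of the 9 members in each library, with the height of a bar giving their sum. The TG bars end between 424 and 619 and the NTG bars between 785 and 1148, and the share of Dcn is 27.0% on average in NTG and 33.4% in TG.

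As shares of the summed level, Dcn made up 24.6% to 28.2% in NTG and 31.5% to 35.9% in TG, without overlap. Lum (6.40% to 9.45% in NTG, 11.3% to 12.0% in TG) and Podn (0.34% to 0.51% in NTG, 0.72% to 1.05% in TG) also took larger shares in TG. Fmod took a smaller one, 2.83% to 5.37% in NTG and 1.04% to 2.55% in TG, and so did Prelp, 8.70% to 11.0% in NTG and 8.29% to 8.55% in TG. The shares of Bgn, Ogn, Aspn and Omd overlapped between the groups. Without the library labelled NTG 1, the share of Bgn was lower and those of Ogn and Omd higher in TG without overlap. Shares add to a fixed sum, so that a smaller share of 1 gene raises those of the others.

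The members were set against genes of the cells and fibrils they belong to. The fibroblast markers Pdgfra and Tcf21, a receptor and a transcription factor of resident cardiac fibroblasts, summed to 110, 161 and 136 CPM in NTG 1, NTG 2 and NTG 3 and to 93.5, 117 and 106 CPM in TG 1, TG 2 and TG 3, with overlap, which ended when the library labelled NTG 1 was left out. Relative to this sum, Bgn was 14.01, 19.4 and 16.7 in NTG 1, NTG 2 and NTG 3 and 7.82, 10.6 and 6.20 in TG 1, TG 2 and TG 3. Dcn (10.2 to 11.8 in NTG, 8.40 to 9.70 in TG), Fmod (0.63 to 1.27 in NTG, 0.16 to 0.44 in TG) and Prelp (2.24 to 2.68 in NTG, 1.24 to 1.58 in TG) were likewise lower in TG without overlap, and Podn was higher (0.104 to 0.156 in NTG, 0.159 to 0.204 in TG), with a small gap to the library labelled NTG 1. Pdgfra made up most of the sum, and Tcf21 alone had a log2 fold change of -0.05 (adjusted p = 0.913, edgeR), and -0.18 (adjusted p = 0.616) without the library labelled NTG 1. Lum, Ogn, Aspn and Omd overlapped on this scale, and without the library labelled NTG 1 Lum and Ogn were higher in TG without overlap. In RNA of whole tissue, fewer cells of a type and less RNA per cell cannot be told apart.

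Relative to the fibrillar collagen transcripts Col1a1, Col1a2 and Col3a1, no member was lower in TG without overlap. These collagens summed to 2182, 5296 and 2878 CPM in NTG 1, NTG 2 and NTG 3 and to 1304, 1916 and 1022 CPM in TG 1, TG 2 and TG 3. The ratio of Bgn to their sum was 0.591 to 0.789 in NTG and 0.561 to 0.652 in TG, and that of Prelp was 0.068 to 0.127 in NTG and 0.097 to 0.128 in TG. Dcn (0.311 to 0.592 in NTG, 0.595 to 0.868 in TG), Lum (0.034 to 0.083 in NTG, 0.089 to 0.121 in TG) and Podn (0.003 to 0.008 in NTG, 0.010 to 0.016 in TG) were higher in TG without overlap. Each of these gaps has an exact permutation p of 0.1, two-sided, and the gap for Dcn between 0.592 in the library labelled NTG 1 and 0.595 in TG 2 is small. Without the library labelled NTG 1, Ogn, Aspn and Omd were also higher in TG on this scale without overlap.

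Across the 6 libraries the members followed one another to different degrees. Centred on its own mean, log2 CPM of Fmod spanned 1.3 in the library labelled NTG 1 to -1.95 in TG 1, while Podn stayed within 0.10 of its mean. Averaged over the members, the centred value was 0.37, 0.56 and 0.33 in NTG 1, NTG 2 and NTG 3 and -0.60, -0.06 and -0.59 in TG 1, TG 2 and TG 3, so that TG 2 stood nearest to NTG. As the root mean square difference between centred profiles, Lum and Ogn were the closest pair at 0.201 log2 units, and Fmod and Podn the most distant at 1.22. Dcn was nearest to the mean profile, at 0.129. The library labelled NTG 1 had the highest value of the 6 for Fmod, Ogn, Omd and Lum, and lay below both other NTG libraries for Dcn, Bgn and Prelp.

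**Figure D4:**
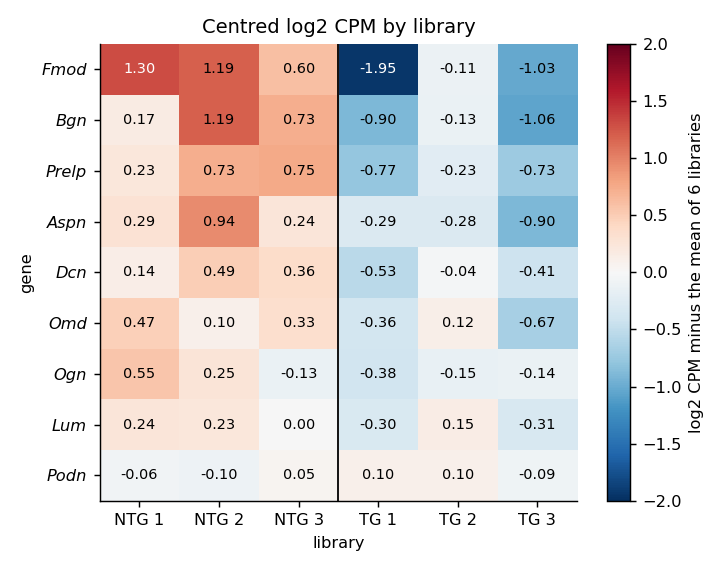
Log2 CPM of each member (rows) in each library (columns) minus the gene's mean over the 6 libraries, with red above and blue below the mean. NTG columns are mostly red and TG columns mostly blue, TG 2 is palest among the TG libraries, and Podn stays within 0.10 of its mean.

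Among the 9071 other genes with a mean of at least 10 CPM, the 5 whose profiles came closest to the mean of the members were Antxr1 (0.079 log2 units), Pdgfrl (0.101), Mgp (0.102), Tgfb3 (0.113) and Timp2 (0.121). Antxr1 is a collagen-binding anthrax toxin receptor, Mgp is matrix Gla protein, an inhibitor of calcification, and Timp2 inhibits metalloproteinases. Mgp was at 621, 756 and 659 CPM in NTG 1, NTG 2 and NTG 3 and at 293, 512 and 303 CPM in TG 1, TG 2 and TG 3. As in the mean profile of the members, NTG 2 was the highest library and TG 2 the highest of the TG libraries.

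Several members lie in clusters that hold other family genes. On chromosome 1, Prelp is 2.3 kb from Optc and 116 kb from Fmod. Dcn on chromosome 10 is 47 kb from Lum, which is followed by Kera and Epyc at 34.2 and 30.4 kb, and on chromosome 13 Ecm2, Aspn, Omd and Ogn are separated by 11.7, 14.9 and 15.2 kb. The fitted differences of neighbours were not of one size, with a log2 fold change of -0.65 for Dcn beside -0.29 for Lum, -0.996 for Aspn beside -0.59 for Omd and -0.47 for Ogn, and -1.14 for Prelp beside -1.90 for Fmod. Whether neighbours differ from one another was not tested.

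Of the 9 other family genes, 5 were tested, and Kera, Epyc, Optc and Podnl1 had 0 to 13 counts per library and were not. Tsku (tsukushi), a secreted inhibitor of BMP and Wnt signals, was at 12.4, 23.7 and 14.5 CPM in NTG 1, NTG 2 and NTG 3 and at 5.12, 9.95 and 6.79 CPM in TG 1, TG 2 and TG 3. The groups did not overlap, the log2 fold change was -1.21 (SE 0.32, adjusted p = 0.196, edgeR), and DESeq2 called it lower (adjusted p = 0.0115). It was -1.39 (adjusted p = 0.0535, edgeR) without the library labelled NTG 1. Ecm2, the neighbour of Aspn, had a log2 fold change of -0.40 (SE 0.15, unadjusted p = 0.0281, edgeR), and its groups did not overlap. Chadl (-0.44) and Nyx (-0.34), each with 4 to 26 counts per library, had unadjusted p values of 0.282 and 0.533 by edgeR. Leaving out the library labelled NTG 1 gave -0.36 for Ecm2, -0.11 for Chadl and -0.23 for Nyx.

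Chad (chondroadherin), a cartilage SLRP without sugar chains, was at 9.15, 0.478 and 1.16 CPM in NTG 1, NTG 2 and NTG 3 and at 3.10, 4.21 and 7.28 CPM in TG 1, TG 2 and TG 3. The library labelled NTG 1 was the highest of the 6 and the other NTG libraries the lowest. With 6 libraries the log2 fold change was 0.47 (SE 0.97, adjusted p = 0.815, edgeR), and without that library it was 2.58 (adjusted p = 0.037), the 1 of 5 other family genes then called higher, against 2.67% of all genes. Markers of atrial muscle were also uneven across libraries. Myl7 was at 19.5, 0.159 and 0 CPM in NTG 1, NTG 2 and NTG 3 and at 1.59, 7.68 and 64.5 CPM in TG 1, TG 2 and TG 3, Sln ranged from 0.053 to 24.8 CPM, and of the 4 atrial markers none passed at an unadjusted p under 0.05 in edgeR. Their part in the value of Chad was not tested.

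Other genes of the proteoglycan pathway were counted from lists of known roles. These lists were chosen with earlier results of these data known, so their counts are descriptive. Of 26 tested enzymes that build chondroitin, dermatan and keratan sulfate chains, 9 were lower and 1 was higher at an unadjusted p under 0.05 by edgeR, beside 9.76% of all genes lower and 8.83% higher. None was called by DESeq2, beside 2.40% of all genes called lower and 1.54% higher, and the median log2 fold change was -0.40. By unadjusted p the leading genes were Csgalnact2, which starts chondroitin chains (-0.37, unadjusted p = 0.0144, edgeR), B3gat3, which completes the linker to the core protein (0.31, unadjusted p = 0.0158), and Chsy1, a chondroitin polymerase (-0.43, unadjusted p = 0.0204). Of 19 other proteoglycans tested, 6 were lower and 0 higher at that threshold, and DESeq2 called 3 lower, beside 2.40% of all genes. Prg4 (lubricin) was at 74.1, 297 and 106 CPM in NTG 1, NTG 2 and NTG 3 and at 31.5, 38.2 and 30.4 CPM in TG 1, TG 2 and TG 3, with a log2 fold change of -2.26 (SE 0.52, adjusted p = 0.196, edgeR). Gpc6, a membrane-anchored glypican, was at -0.87 and Sdc1, a syndecan, at -0.72 on the same scale, and the median of this list was -0.15.

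Of 9 fibrillar collagen genes tested, 5 were lower and 1 was higher at an unadjusted p under 0.05 by edgeR, beside 9.76% and 8.83% of all genes, and DESeq2 called 3 lower, beside 2.40%. Their median log2 fold change was -0.74. Col5a2, which nucleates fibrils, was at 231, 669 and 377 CPM in NTG 1, NTG 2 and NTG 3 and at 121, 185 and 88.0 CPM in TG 1, TG 2 and TG 3, with a log2 fold change of -1.70 (SE 0.44, adjusted p = 0.196, edgeR). Col3a1 (-1.45) and Col1a2 (-1.18) followed. Groups of these 3 genes did not overlap, and NTG 2 was highest in each.

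The 15 tested ligands and receptors known to bind SLRPs included 7 that were lower and 1 that was higher at an unadjusted p under 0.05 by edgeR, beside 9.76% and 8.83% of all genes, with 5 called lower by DESeq2, beside 2.40%, and a median of -0.40. Tgfb2 and Tgfb3, growth factors of the family that decorin and its relatives bind, had log2 fold changes of -1.11 (unadjusted p = 0.00448, edgeR) and -0.68 (unadjusted p = 0.00522), and Cd14, a co-receptor used by soluble biglycan, had -0.98 (unadjusted p = 0.00578). Tlr2 (-0.63) and Tlr4 (-0.09) did not pass. Among 14 proteases and their helpers that cut SLRPs, 9 were lower and 1 was higher at that threshold, with a median of -0.58, and DESeq2 called 2 lower and 1 higher, beside 1.54% of all genes higher. Pcolce, an enhancer of procollagen processing (-0.72), and Mmp14, a membrane-bound metalloproteinase (-0.86), were lower without overlap, and Gzmb, a granule protease of cytotoxic lymphocytes, was higher (2.90, unadjusted p = 0.0042, edgeR) at 1 to 7 counts in NTG and 12 to 60 in TG. No gene of these lists was called by edgeR with 6 libraries. Without the library labelled NTG 1, edgeR called lower 1 of the chain-building enzymes, 3 of the other proteoglycans, 1 of the fibrillar collagens, 0 of the ligands and receptors and 4 of the proteases, beside 2.85% of all genes, and called 0 of these genes higher. Among them were Gpc6 (adjusted p = 0.0442), Col3a1 (adjusted p = 0.0466), Pcolce (adjusted p = 0.032) and Mmp14 (adjusted p = 0.037). The list medians were then -0.49, -0.27, -0.95, -0.53 and -0.72 in that order.

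**Figure D5:**
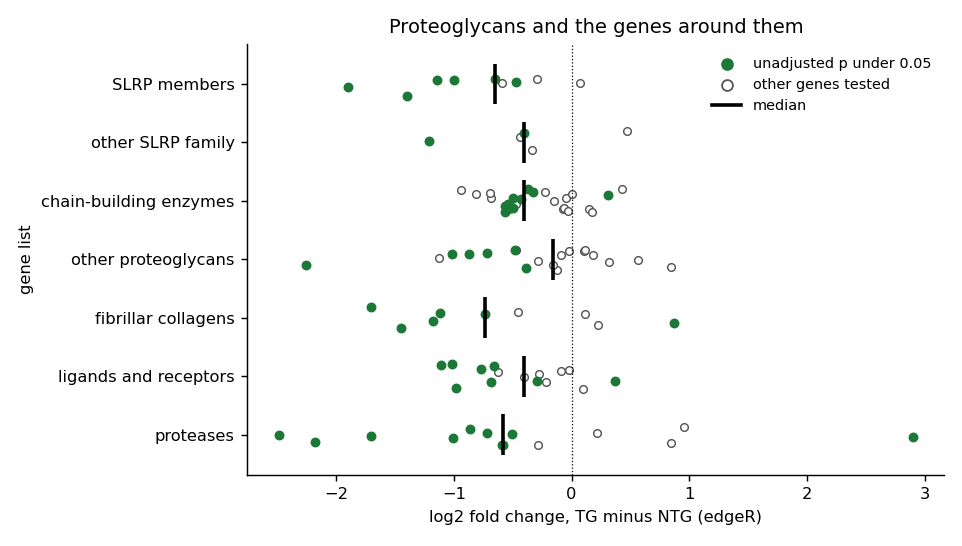
Log2 fold change (TG minus NTG, x axis) from edgeR of each tested gene in the members and the lists of related genes, with filled points for an unadjusted p under 0.05 and a vertical bar at each median. Medians were between -0.74 for fibrillar collagens and -0.15 for other proteoglycans, with -0.65 for the 9 members.

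Markers of the cells in the ventricle were read in the same libraries. Of 9 fibroblast markers, all detected, 5 were lower and 0 higher at an unadjusted p under 0.05 by edgeR, where 9.76% of all genes were lower and 8.83% higher, and their summed level overlapped at 4673 to 6525 CPM in NTG and 3643 to 4900 CPM in TG. The lower ones were Pdgfra, Pdgfrl, Mfap5 and the collagens Col1a1 and Col3a1, while Tcf21, Dpt, Lamc1 and Gsn did not pass. Gsn was a large part of this sum, with a mean of 1923 CPM in NTG and 2273 CPM in TG. Of 8 markers of activated fibroblasts 6 were lower and 1, Acta2, was higher, and their sum was 2334, 6712 and 4223 CPM in NTG 1, NTG 2 and NTG 3 and 701, 1576 and 504 CPM in TG 1, TG 2 and TG 3. Postn (periostin), the defining gene of that state, was at 943, 3566 and 2082 CPM in NTG 1, NTG 2 and NTG 3 and at 281, 672 and 178 CPM in TG 1, TG 2 and TG 3. TG 2 was again the highest of the TG libraries. Of the 7 macrophage markers 3 were lower, and their sum overlapped at 493 to 986 CPM in NTG and 406 to 560 CPM in TG.

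Cardiomyocyte genes, which define the labelled tissue, were abundant in every library, and their sum overlapped at 22480 to 37400 CPM in NTG and 36060 to 44450 CPM in TG, with 2 of 9 higher at an unadjusted p under 0.05 by edgeR, where 8.83% of all genes were higher and 9.76% lower. All 5 erythroid genes were lower at that threshold, with a sum of 1310 to 2245 CPM in NTG and 762 to 908 CPM in TG. Of 8 tested markers of tendon, cartilage or valve, 2 that also mark activated fibroblasts (Comp and Thbs4) were lower and 0 higher, and the other 7 markers of the list summed to 28.2 to 46.0 CPM in NTG and 26.3 to 38.6 CPM in TG, while Scx, a defining transcription factor of tendon, was at 14.1 to 17.2 CPM in NTG and 10.5 to 15.6 CPM in TG. Endothelial markers (0 of 6 lower, 2 higher), smooth muscle and pericyte markers (0 of 7 lower, 2 higher) and the epicardial marker tested, Wt1 (20.4 to 41.6 CPM in NTG, 22.9 to 34.6 CPM in TG), overlapped between the groups in their summed level. The 2 higher smooth muscle genes were Myh11 (log2 fold change 0.70, edgeR) and Cnn1 (0.75). Both were higher in TG without overlap, as was Acta2 (0.42). Without the library labelled NTG 1, the summed level of the fibroblast and macrophage markers was lower and that of the cardiomyocyte genes higher in TG without overlap. The atrial sum was then also lower without overlap, but most of it was Nppa (754 to 1400 CPM in NTG, 172 to 867 CPM in TG), a natriuretic peptide gene that ventricles also express under load, and the other 3 atrial markers had log2 fold changes above 0 (3.99 to 8.09, none with an adjusted p under 0.05). The part of these cell type markers in the lower level of the proteoglycans was not tested.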

How the data were processed

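Poly-A RNA-seq libraries of 3 TG and 3 NTG left ventricles were analysed. The authors filtered reads with in-house scripts, aligned them to a genome, used StringTie for transcripts and featureCounts for gene-level counting, and they deposited raw counts, 1 column per heart, without normalization. The submitters' processing notes name HISAT2, DESeq2 and a build called GRCh38, while the gene coordinates and exon lengths of the 9 members in the deposited table match GENCODE release M21 on GRCm38, which is used here. Strand setting and handling of multiply mapped reads are not given in the sources used here. Columns were matched to libraries by their labels, and 0 were left unmatched.

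Group differences were fitted with edgeR 4.0.16 under R 4.3.3 (TMM, filterByExpr by group, robust glmQLFit, glmQLFTest, no covariate) and Benjamini-Hochberg adjustment over the 14774 genes tested. The SE is the log2 fold change divided by the square root of the F statistic, and 95% intervals use the total degrees of freedom. Single values were tested by exact permutation over the 6 libraries. Centred profiles used log2 CPM with a prior count of 2, and levels between genes used CPM per kilobase of merged exon length. Alternatives were RLE scaling, library size alone, no low-count filter, DESeq2 1.42.0, limma 3.58.1 (voom), a replicate block and each library left out in turn. DESeq2 with each library left out, group ranges without the library labelled NTG 1 and the tendon list without Comp and Thbs4 were added after the values had been seen. On simulated counts for 14553 genes, 192 of them changed by a log2 value of 1.5, 83.9% were recovered by edgeR (14 false calls), 89.1% by DESeq2 (36 false calls) and 82.8% by voom (14 false calls). The simulated size exceeds the fitted size of every member but Fmod, and no simulated library departed from its group. These shares therefore check the code and do not measure the power to call the members here. Every pair of libraries differed by more than sampling noise (chi-square per gene 15.5 to 133), so each was taken as a replicate of its own. A sequencing batch is not given in the sources used here. SDs include counting error.

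The members and gene lists were chosen with earlier results of these data known. Named genes are the 9 members, the other family genes tested, Hint2, the 3 tested genes of each list with the smallest unadjusted p, defining markers and the 5 genes outside the family nearest to the mean member profile. Other genes named beside these (Tlr2, Tlr4, Acta2, Comp, Thbs4, Myh11, Cnn1, the fibroblast markers that are not defining ones, and neighbouring or overlapping genes) were chosen after their values were seen. Promoter sequences are from RefSeq (GRCm38.p6).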

Additional observations from a re-analysis of the deposited data

How the results depend on the processing

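Beside 0 members called lower by edgeR with 6 libraries, 2 were called without a low-count filter (Dcn and Prelp, 0.432% of all genes), 5 by DESeq2 (2.40%) and 3 with the replicate number as a block (Bgn, Aspn and Prelp, 0.995%), while RLE scaling, library size alone and voom called 0. Leaving out 1 library gave 0 to 2 calls by edgeR, the 2 without the library labelled NTG 1 (2.85% of all genes), and 2 to 5 by DESeq2 (2 without NTG 2 or TG 3, 4 without NTG 1 or TG 1, 5 without NTG 3, with Ogn called and Dcn not, or without TG 2), where 0.467% (without TG 3) to 5.89% (without NTG 1) of all genes were called lower. None was called higher in any of the 18 alternatives, where 0 (RLE scaling) to 896 (DESeq2 without the library labelled NTG 1) of all genes tested were called higher. The count at an unadjusted p under 0.05 was 5 to 8 over the fits that left out a library, and the share of all genes 4.67% to 13.3%. The median log2 fold change of the members ranged from -0.85 without TG 2 to -0.55 without TG 1, and was -0.85 in DESeq2 without TG 2. Scaling by library size alone moved the median of all genes to -0.09 and that of the members to -0.73, and turned Podn to -0.0077, the 1 member that changed direction under any alternative. The causes of these shifts were not tested. Deviations from the group means correlated at 0.0807, 0.173 and -0.252 for same-numbered libraries and at -0.253 to 0.167 for differently numbered ones. With 3 libraries per group, these values cannot decide whether the replicate numbers pair the samples. With the block, 7 members were lower at an unadjusted p under 0.05 (edgeR), with a median of -0.66. Omd had the fewest counts of the members, 29 to 64 per library.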
